A study of Mus musculus with 4 samples.

Results

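The 10 genes described here encode the transcription factors that set and hold B lineage identity, and 1 coactivator. They are Pax5, Ebf1, Ikzf1, Ikzf3, Pou2f1, Pou2f2, Pou2af1, Bcl11a, Runx1 and Runx3. They were chosen by symbol, and all 10 were found among the 13792 genes listed for each library. The libraries held total RNA from mouse B cells. Naive B cells of strain C57BL/6 were infected with a retrovirus and kept in culture with anti-IgM and anti-CD40. The RVKM-Ascl2 library came from cells given the virus with Ascl2, and the RVKM-Empty library from cells given the virus without it. Both groups share the strain, the infection and the stimulation, and the labels give no age, no infected share of the cells and no time in culture. There was 1 library per group, so no difference below has a replicate check and none was tested. The series also has 2 chromatin samples of germinal centre B cells, an input and an Ascl2 immunoprecipitation, which were not analysed here.

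A B cell is specified in steps. Ebf1 and Pax5 open and then lock the B cell programme in the bone marrow, and Pax5 both activates B cell genes and silences genes of other lineages and of plasma cells. Ikaros (Ikzf1) and Aiolos (Ikzf3) are zinc finger proteins that work with the NuRD chromatin remodelling complex. Oct-1 (Pou2f1) and Oct-2 (Pou2f2) bind the octamer motif of immunoglobulin promoters and enhancers and recruit the B cell coactivator OCA-B (Pou2af1). Bcl11a is a zinc finger repressor that early B cell development requires. Runx1 and Runx3 bind DNA as partners of the beta subunit encoded by Cbfb, Runx1 being needed early in blood and B cell development and Runx3 best known from T cells and mature lymphocytes.

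Runx1 was the member that differed most between the libraries, and the genomic sequence before its starts is shown for that reason. Like other Runx genes it is transcribed from a distal and a proximal promoter, and the deposited values give 1 level per gene and do not separate them. The sequences are from RefSeq on GRCm38.p6, read 5′ to 3′ on the gene's own strand, and cover the 250 bases before each annotated start. The distal one is chr16:92826075-92826324 and the proximal one chr16:92697330-92697579, both on the minus strand. Capitals mark E-boxes, the motif CANNTG that basic helix-loop-helix factors such as Ascl2 bind. The motif reads the same on both strands.
Runx1 distal: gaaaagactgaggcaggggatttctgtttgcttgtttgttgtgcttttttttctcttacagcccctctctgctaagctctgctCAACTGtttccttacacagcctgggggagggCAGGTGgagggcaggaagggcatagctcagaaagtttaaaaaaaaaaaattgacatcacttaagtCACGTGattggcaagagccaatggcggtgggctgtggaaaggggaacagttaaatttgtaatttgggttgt
Runx1 proximal: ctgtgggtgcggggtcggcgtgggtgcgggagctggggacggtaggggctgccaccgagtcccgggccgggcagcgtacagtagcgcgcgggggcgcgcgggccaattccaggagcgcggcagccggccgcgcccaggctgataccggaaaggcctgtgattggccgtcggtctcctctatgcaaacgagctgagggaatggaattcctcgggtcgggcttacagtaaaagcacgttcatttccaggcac

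The distal sequence holds 3 E-boxes, which begin 167, 136 and 71 bases before the start, and the proximal sequence holds none. Of all 32851 windows of 300 bases in the table (250 before and 50 after a start), 72.3% hold at least 1 E-box and 17.6% hold 3 or more. E-boxes are thus common, and a match in the letters is not a bound site. The GC content of the 250 bases was 45.6% in the distal sequence and 67.6% in the proximal one. The table has 15 windows for 9 members (Ikzf3 has no entry), of which 10 windows of 8 members hold CANNTG. The narrower form CAGCTG is in 1 window, an internal start of Pou2f1, against 16.3% of all windows. The octamer ATGCAAAT, searched on both strands, is in none of the 15 windows and in 1.74% of all windows.

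Runx1 and Runx3 share a short stretch in their distal windows that holds a pair of Runx motifs. The motif searched was TGTGGT on both strands, which reads ACCACA on the strand printed, and capitals mark it. The Runx1 stretch is chr16:92826025-92826054 on the minus strand and the Runx3 stretch is chr4:135120503-135120532 on the plus strand.
Runx1 distal pair: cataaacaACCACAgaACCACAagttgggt
Runx3 distal pair: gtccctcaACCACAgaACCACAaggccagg

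In both genes the paired motifs begin 8 bases apart. The pair begins 29 bases after the annotated start in Runx1 and 134 bases before it in Runx3. At least 1 TGTGGT is in 16.8% of all windows, while 20 of 32851 windows (0.0609%) hold 2 that begin 8 bases apart. That spacing was read from the Runx1 and Runx3 stretches themselves, so the share describes a pattern set by these sequences. The motif is also in 1 window each of Ebf1 and Pou2f2. These are matches of letters, and binding was not measured here.

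The values are abundances scaled for depth, with the name of the unit not given in the sources used here. Low values hardly repeat between genes (511 distinct values among 514 below 0.5 in RVKM-Ascl2 and 676 among 682 in RVKM-Empty). They are thus not steps of 1 fixed unit, as whole read counts scaled by depth alone would be. Fractional counts scaled by depth alone could also hardly repeat, so scaling for gene length is assumed and not shown. The values were read as scaled for gene length too, and levels of different genes are compared on that assumption. They summed to 763932 in RVKM-Ascl2 and 750692 in RVKM-Empty. The number of reads behind a value is unknown, and no interval for counting error is given. Ascl2 itself had a value of 29.4 in RVKM-Ascl2 and 0.0809 in RVKM-Empty, the direction the labels give. The 7 B cell markers (such as Cd79a, Ms4a1 and Cd74) ranged from 100.02 to 4168 in RVKM-Ascl2 and from 101 to 5742 in RVKM-Empty, so the label of B cells holds. None of the 7 was past 1.5-fold, but 6 were lower in RVKM-Ascl2 and 1 (Ms4a1) higher, and their median log2 ratio was −0.31. Of all genes that reached 1 in either library, 9.32% were past 1.5-fold, and the median log2 ratio of those genes was −0.01. No listed gene had a value of 0 in either library. A gene with no row, here and below, may thus have been at 0 in 1 library only. A missing row therefore does not show absence from both, and the shares over all genes given below cover listed genes only. Of 11 T cell markers, 9 had no row in the tables, Cd3d, Cd3e, Cd3g, Cd4 and Cd8a among them. The sum of the 2 that were listed was 353 in RVKM-Ascl2 and 404 in RVKM-Empty, of which Thy1 made up 346 and 395 in the same libraries. The source of the Thy1 reads was not tested. Of 9 myeloid markers 5 were listed, with sums of 30.3 in RVKM-Ascl2 and 23.9 in RVKM-Empty. The listed NK cell, stromal, and erythroid and megakaryocyte markers summed to 0.874, 1.004 and 3.57 in RVKM-Ascl2 and to 0.455, 0.536 and 3.34 in RVKM-Empty.

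Of the 10 members, 9 had similar values in the libraries, and Runx1 alone was at least 2-fold lower in RVKM-Ascl2. The log2 ratio used throughout is that of the RVKM-Ascl2 value plus 1 over the RVKM-Empty value plus 1. A gene was kept if it reached 1 in either library, which left 12283 genes, all 10 members included. Of these genes 2.25% were past 2-fold, 0.716% lower and 1.53% higher. At the smaller limit of 1.5-fold, Runx1 was again the one member past it, while 9.32% of all genes were past it, 4.31% lower and 5.01% higher. The median log2 ratio was 0.01 over the members and −0.01 over all genes, and the median of its absolute size was 0.19 over the members and 0.21 over all genes. The members as a group thus lay about where genes in general lay. By sign, 5 members were higher and 5 lower in RVKM-Ascl2, but Pax5, Ikzf3 and Pou2f2 among them changed sign in other settings.

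**Figure D1:**
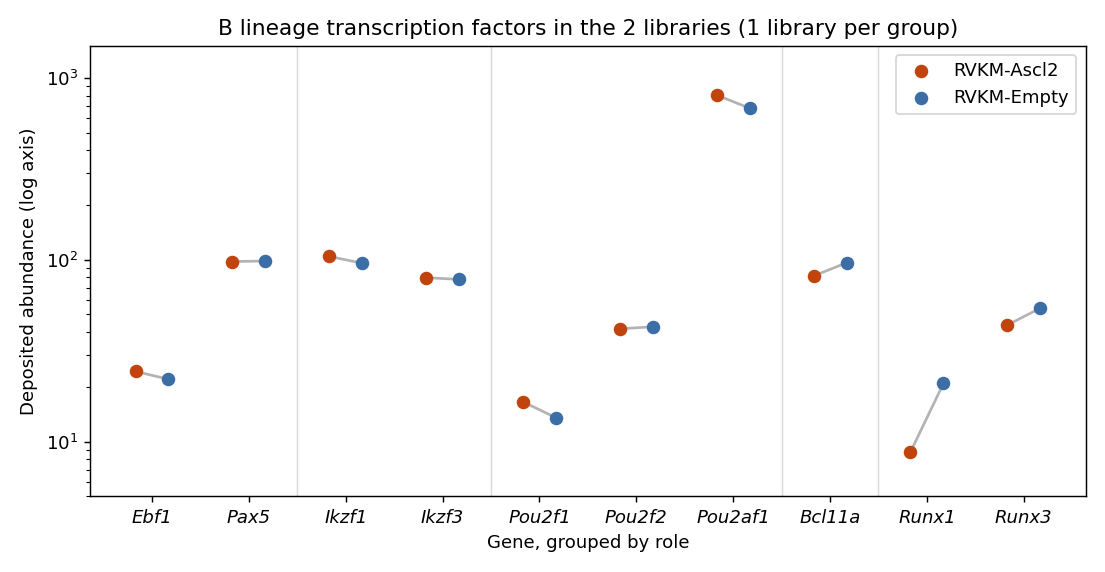
Deposited abundance (log axis) of each of the 10 genes, grouped by role, with 1 point per library (RVKM-Ascl2 left, RVKM-Empty right) and no error bars because each group has 1 library. The paired points lie nearly level except for Runx1, at 8.75 in RVKM-Ascl2 and 20.9 in RVKM-Empty.

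The pair that commits cells to the B lineage was little different between the libraries. Ebf1 (ENSMUSG00000057098, chromosome 11, 44618100 to 45008096), a pioneer factor that opens B cell chromatin, was 24.3 in RVKM-Ascl2 and 22.0 in RVKM-Empty, a log2 ratio of 0.14. Pax5 (ENSMUSG00000014030, chromosome 4, 44524748 to 44710694), the paired domain factor that locks the programme, was 97.7 in RVKM-Ascl2 and 98.4 in RVKM-Empty, a log2 ratio of −0.01. The Pax5 value was higher than that of 92.2% of the genes kept in RVKM-Ascl2 and 91.8% in RVKM-Empty. Pax5 thus stood near the top of the range and Ebf1 nearer its middle, with 68.2% of genes below it in RVKM-Ascl2 and 65.0% in RVKM-Empty. A non-coding gene that overlaps Pax5, 5730488B01Rik, was 4.01 in RVKM-Ascl2 and 6.13 in RVKM-Empty, and whether reads were assigned by strand is not stated. Of the Ebf1 relatives, Ebf4 was at 0.732 in RVKM-Ascl2 and 0.770 in RVKM-Empty, and Ebf2 and Ebf3 had no row.

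The Ikaros family pair was expressed at nearly equal levels in both libraries. Ikzf1 (ENSMUSG00000018654, chromosome 11, 11684962 to 11772930) was 104 in RVKM-Ascl2 and 95.7 in RVKM-Empty, a log2 ratio of 0.12. Ikzf3 (ENSMUSG00000018168, chromosome 11, 98464610 to 98546031) was 79.7 in RVKM-Ascl2 and 77.95 in RVKM-Empty, a log2 ratio of 0.03. The ratio of Ikzf1 to Ikzf3 was 1.31 in RVKM-Ascl2 and 1.23 in RVKM-Empty, so neither library was dominated by one of the paralogs. Of their relatives, Ikzf5 was 14.5 in RVKM-Ascl2 and 15.4 in RVKM-Empty, and Ikzf2 (Helios) and Ikzf4 (Eos) had no row.

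Among the octamer factors the coactivator RNA was far more abundant than the RNAs of the factors it binds. Pou2af1 (ENSMUSG00000032053, chromosome 9, 51213690 to 51240079) was 805 in RVKM-Ascl2 and 682 in RVKM-Empty, a log2 ratio of 0.24. It took 61.8% of the summed values of the 10 members in RVKM-Ascl2 and 56.7% in RVKM-Empty, and 99.1% and 98.9% of all genes lay below it in the same 2 libraries. Pou2f2 (ENSMUSG00000008496, chromosome 7, 25087350 to 25180797), the octamer factor enriched in B cells, was 41.7 in RVKM-Ascl2 and 42.8 in RVKM-Empty, a log2 ratio of −0.04. Pou2f1 (ENSMUSG00000026565, chromosome 1, 165865150 to 166002749), its widely expressed relative, was 16.5 in RVKM-Ascl2 and 13.5 in RVKM-Empty, and its log2 ratio of 0.27 was the highest of the 10. The ratio of Pou2f2 to Pou2f1 was 2.52 in RVKM-Ascl2 and 3.16 in RVKM-Empty. Pou2af1 stood at 13.8 times the sum of Pou2f1 and Pou2f2 in RVKM-Ascl2 and 12.1 times in RVKM-Empty. Pou2f3, the remaining relative, had no row.

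Bcl11a (ENSMUSG00000000861, chromosome 11, 24076564 to 24173558) was among the more abundant members and slightly lower in RVKM-Ascl2. It was 81.4 there and 96.2 in RVKM-Empty, a log2 ratio of −0.24, which 23.4% of all genes kept lay below. Its relative Bcl11b, which holds T cell identity, had no row in the tables.

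The Runx pair showed the widest difference. Runx1 (ENSMUSG00000022952, chromosome 16, 92601466 to 92826074) was 8.75 in RVKM-Ascl2 and 20.9 in RVKM-Empty. The linear ratio was 0.42 and the log2 ratio −1.16, and 47 of the 12283 genes kept had a lower one. With a pseudocount of 5 in place of 1 it was −0.91, short of 2-fold. With no replicate it cannot be said whether this exceeds the spread between cultures. Runx1 was of moderate level, and among 2561 genes whose mean log2 value lay within 0.5 of its own, 14 (0.547%) were lower by 2-fold or more and 6 lay below Runx1 in ratio. That window was set after the Runx1 value was seen.

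Runx3 (ENSMUSG00000070691, chromosome 4, 135120645 to 135177990) was 43.7 in RVKM-Ascl2 and 54.1 in RVKM-Empty, a log2 ratio of −0.30 that did not reach 1.5-fold. It was the more abundant Runx gene in both libraries. The ratio of Runx1 to Runx3 was 0.20 in RVKM-Ascl2 and 0.39 in RVKM-Empty, and Runx1 made up 16.7% of the sum of both in RVKM-Ascl2 and 27.8% in RVKM-Empty. That sum was 52.5 in RVKM-Ascl2 and 75.0 in RVKM-Empty. Cbfb, the shared partner subunit, was 52.8 in RVKM-Ascl2 and 54.2 in RVKM-Empty, so the Runx sum stood at 0.99 times Cbfb in RVKM-Ascl2 and 1.38 times in RVKM-Empty. The third family gene, Runx2, had no row. Fewer cells that express Runx1 and less Runx1 RNA per cell cannot be told apart in bulk RNA.

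**Figure D2:**
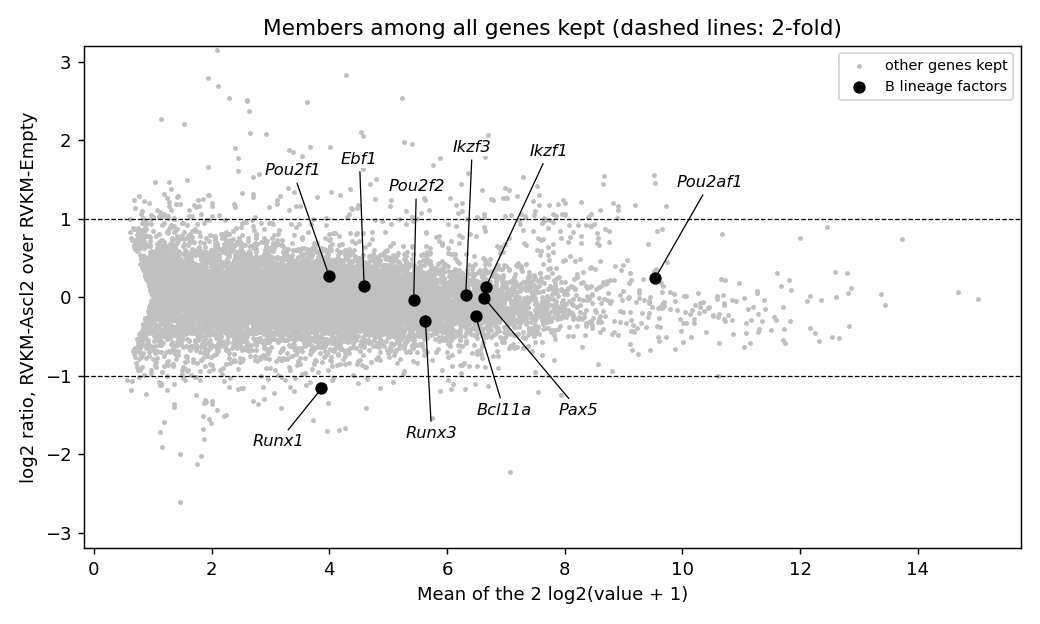
Log2 ratio of RVKM-Ascl2 over RVKM-Empty (vertical axis) against the mean of the 2 log2 values plus 1 (horizontal axis) for the 12283 genes kept, with the 10 members in black and dashed lines at 2-fold. Only Runx1 of the members lies outside the dashed lines, and 7 genes beyond ±3.2 are not drawn.

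The order of the members by level was similar in the libraries, and 5 of 10 held the same place. Pou2af1 was first in both, 7.72 times the next member in RVKM-Ascl2 and 6.93 times in RVKM-Empty. Ikzf1, Pax5, Bcl11a and Ikzf3 followed in RVKM-Ascl2, and the same 4 genes held these places in RVKM-Empty in the order Pax5, Bcl11a, Ikzf1 and Ikzf3. Within these 4 the steps between neighbours ranged from 1.02 to 1.20 times in RVKM-Ascl2 and from 1.01 to 1.23 times in RVKM-Empty. With 1 library per group no spread is known, so these neighbours are not ranked against each other. Runx3, Pou2f2 and Ebf1 came next in both. Runx1 was last in RVKM-Ascl2, below Pou2f1, and above Pou2f1 in RVKM-Empty.

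The level of each member was set against 29 listed transcription factor genes, namely the other B lineage factors and the family relatives, by the distance of the 2 log2 values. Pou2f2 lay nearest to Myb (44.3 in RVKM-Ascl2 and 42.9 in RVKM-Empty), at 0.09 on the log2 scale, with the E protein gene Tcf4 next (43.8 and 41.1 in the same libraries). Irf4, a factor of activated B cells and plasma cells at 108 in RVKM-Ascl2 and 88.3 in RVKM-Empty, was nearest to Pax5, Ikzf1 and Ikzf3. Runx1 lay nearest to the E protein inhibitor gene Id3 (10.4 in RVKM-Ascl2 and 16.3 in RVKM-Empty), at 0.40. Over 2 libraries such nearness describes a level and its ratio and no more.

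Of 26 other B lineage transcription factors, all were kept, 2 were at least 2-fold higher in RVKM-Ascl2 and none at least 2-fold lower. The 2 were Ets1, which restrains plasma cell formation, at 36.2 in RVKM-Ascl2 and 10.04 in RVKM-Empty (log2 ratio 1.75), and Prdm1, which drives it, at 9.23 and 3.10 in the same libraries (log2 ratio 1.32). At 1.5-fold, Bach2 was also higher (log2 ratio 0.80) and Lef1 (−0.98) and Id3 (−0.61) were lower. The remaining 21 lay between, and the list's median log2 ratio was 0.05. Runx1 was thus lower by more than any of these 26 genes. Over all genes kept, 1.53% were at least 2-fold higher and 0.716% at least 2-fold lower. At 1.5-fold the shares were 5.01% higher and 4.31% lower, and the median log2 ratio of all genes kept was −0.01.

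Genes of the corepressors and of the NuRD complex, through which Pax5 and Ikaros proteins silence genes, showed no member past 1.5-fold. Over all genes kept, 9.32% were past that limit. All 21 were kept, with 16 lower and 5 higher in RVKM-Ascl2. Some on either side lay near 0, such as Tle2 (log2 ratio −0.004) and Tle4 (0.02). The list also holds Arid1a and Smarca4, which belong to another remodelling complex. The largest ratios were those of Mta1, a NuRD subunit gene at 49.7 in RVKM-Ascl2 and 73.2 in RVKM-Empty (log2 ratio −0.55), and of its relative Mta3, at 31.5 and 44.0 in the same libraries (−0.47). Aes, a short Groucho family gene, was 149 in RVKM-Ascl2 and 205 in RVKM-Empty (−0.46), and Mbd3 had a log2 ratio of −0.40. Chd4, the NuRD remodeller, was 94.7 in RVKM-Ascl2 and 102 in RVKM-Empty. The list's median was −0.12, against −0.01 over all genes kept. Over the settings tried the list's median ranged from −0.15 to −0.04.

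Genes that Pax5 is known to activate included members on both sides. All 15 were kept, of which 1 was at least 2-fold higher, 2 at least 1.5-fold higher, 2 at least 1.5-fold lower and 11 between. Over all genes kept these shares were 1.53% at least 2-fold higher, 5.01% at least 1.5-fold higher and 4.31% at least 1.5-fold lower. The list's median log2 ratio was −0.04, and it changed sign over the settings tried (−0.06 to 0.05). Cr2, a complement receptor gene, was 30.5 in RVKM-Ascl2 and 7.35 in RVKM-Empty (log2 ratio 1.91), and Bach2, Lef1 and Id3 are given above. Blnk, a signalling adaptor gene, was 100.02 in RVKM-Ascl2 and 101 in RVKM-Empty, and Cd79a was 492 and 665 in the same libraries (−0.43).

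Of 11 genes that Pax5 is known to repress, 8 were kept, 2 were at least 2-fold higher and the other 6 were within 1.5-fold. Of all genes kept, 1.53% were at least 2-fold higher. The list's median log2 ratio was 0.13. That median ranged from 0.06 with a pseudocount of 5 to 0.26 with the trend of the ratio with gene span removed. The 2 genes at least 2-fold higher were Prdm1 and Jchain, the joining chain gene, at 301 in RVKM-Ascl2 and 113 in RVKM-Empty (log2 ratio 1.41). Both are also plasma cell markers, and Xbp1 belongs to both lists as well. Emb, also on the list, was 22.7 in RVKM-Ascl2 and 28.1 in RVKM-Empty (log2 ratio −0.30). Repressed genes of other lineages were low or differed less, with Flt3 at 16.2 in RVKM-Ascl2 and 18.4 in RVKM-Empty, Csf1r at 1.06 and 0.780, and Notch1 at 6.87 and 7.27 in the same order of libraries. Of 6 plasma cell markers, 5 were kept and 2 were at least 2-fold higher, with sums of 693 in RVKM-Ascl2 and 445 in RVKM-Empty. Sdc1, the surface marker by which plasma cells are sorted, was 2.37 in RVKM-Ascl2 and 2.99 in RVKM-Empty. The part of plasma cells in these values was not tested.

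Of 10 genes that Ebf1 is known to activate, 8 were kept and none was past 1.5-fold, against 9.32% of all genes kept. The list holds Pax5 and Pou2af1, members described above. Vpreb3, a gene related to the surrogate light chain, was 32.3 in RVKM-Ascl2 and 46.9 in RVKM-Empty (log2 ratio −0.52), Cd79b was 626 and 748 in the same libraries (−0.25), and the kinase gene Blk was 58.4 and 56.1 (0.06). The median log2 ratio was 0.02, and it changed sign as well (−0.06 to 0.11).

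Genes that depend on Oct-2 or OCA-B had a median log2 ratio of 0.45 over 7 kept of 8 genes. One was at least 2-fold higher, Cd36, a scavenger receptor gene known as an Oct-2 target in mouse B cells, at 10.7 in RVKM-Ascl2 and 4.30 in RVKM-Empty (log2 ratio 1.15). Ighm (0.89) and Igkc (0.73), whose control regions carry octamers, were past 1.5-fold. Of all genes kept, 1.53% were at least 2-fold higher and 5.01% at least 1.5-fold higher. Il5ra, the interleukin-5 receptor gene that Oct-2 controls in mice, was 118 in RVKM-Ascl2 and 86.3 in RVKM-Empty (0.45). Cxcr5 was 74.0 in RVKM-Ascl2 and 83.0 in RVKM-Empty, and Spib 208 and 205 in the same libraries. The plasma cell marker sums above stand beside this list too, and their part in it was not tested. With the trend of the ratio with gene span removed the median was 0.19, and 0.41 when immunoglobulin genes were left out of that trend.

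**Figure D3:**
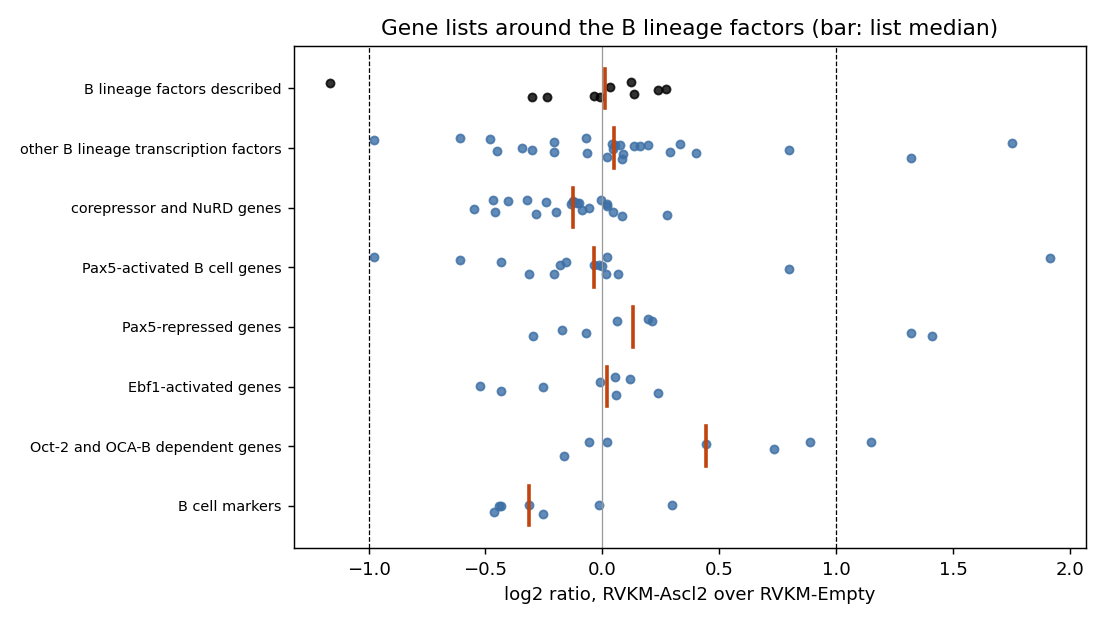
Log2 ratio of RVKM-Ascl2 over RVKM-Empty for each kept gene of 8 lists, with the list median as a bar and dashed lines at 2-fold. Lists share genes. The members' median is 0.01 and that of the Oct-2 and OCA-B dependent genes 0.45.

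Most members are long genes, with a median genomic span of 95.2 kb against 20.1 kb over 11327 kept genes with a known span. The log2 ratio varied somewhat with span in these libraries, so the running median over genes of like span was computed for each member. It was 0.06 at the spans of Ebf1 and Bcl11a, 0.07 at those of Runx1, Pax5, Ikzf1, Pou2f1 and Pou2f2, 0.08 at that of Runx3 and 0.09 at that of Ikzf3. At the shorter span of Pou2af1 it was below 0.01 in size. These values are small beside the Runx1 ratio and larger in size than the ratios of Pax5, Ikzf3 and Pou2f2. With the trend removed, or the library rescaled, Pax5, Ikzf3 and Pou2f2 changed sign, so they are given no direction. The other 7 members had the same sign in all 8 alternative settings, and Runx1 ranged from −1.24 to −0.91. Other pseudocounts and filters cannot change the sign of a member, and both versions of the trend removal gave the same member values. A sign could thus change only with the rescalings and the trend removal.

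**Figure D4:**
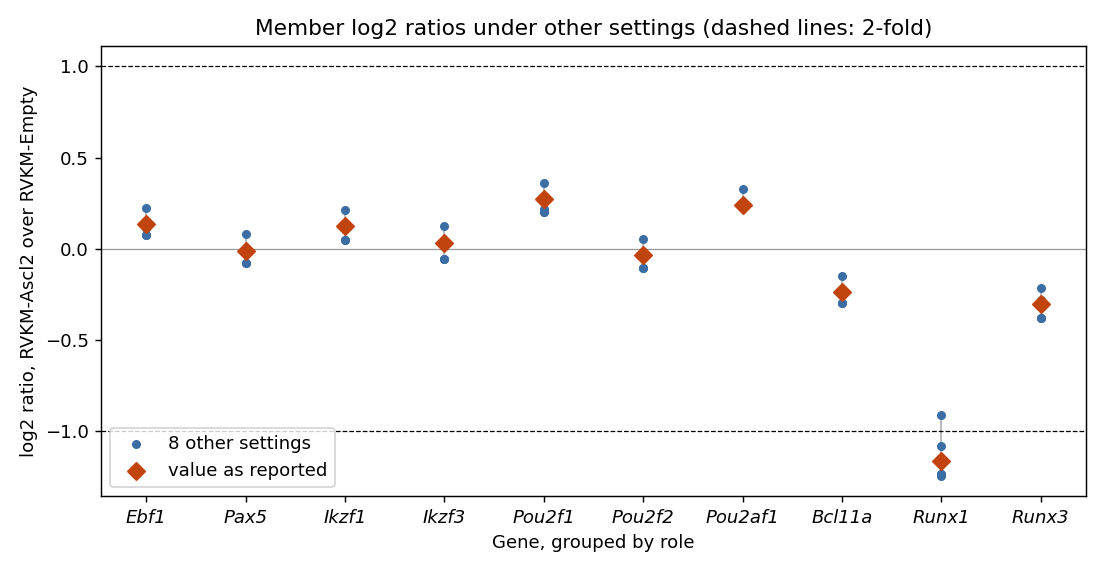
Log2 ratio of RVKM-Ascl2 over RVKM-Empty of each member as reported (diamonds) and under 8 other settings (dots), with dashed lines at 2-fold. Runx1 lies between −1.24 and −0.91 and the other members lie within 1.5-fold in every setting.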

How the data were processed

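RNA of 2 libraries was used, 1 per group, grouped by sample title. Each deposited table holds 1 value per gene, a signal that, judged from its decimals and sums, the authors had scaled for depth. The sources used here do not give its unit, quantifier, annotation or use of strand. The submitters' processing notes name mm10, Trim Galore, Bowtie2, Picard and MACS2 without roles. Absolute depth is unknown. Among 1509 genes below 1 in both libraries, ratios of RVKM-Ascl2 to RVKM-Empty piled up at 0.57 (33 genes) and 1.15 (26 genes), where neighbouring intervals of 0.01 held medians of 7 and 8.5 genes. Equal reads, and 1 read against 2, would give such ratios if the RVKM-Empty library were about 1.15 times as deep.

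The values are not counts and each group has 1 library, so no test was run. Log2 ratios used a pseudocount of 1, which understates differences of low genes. Genes that reached 1 in either library were kept, and limits of 2-fold and 1.5-fold replaced a test. Members, gene lists and limits were chosen with earlier results of these data known. All members are named, with list genes past 2-fold, up to 4 per list with the largest ratios, and the family relatives. Other list genes named (Chd4, Blnk, Cd79a in the Pax5 list, Flt3, Csf1r, Notch1, Sdc1, Blk, Cxcr5, Spib and others given as context) were picked after their values were seen. Coordinates, spans and promoter windows were matched by symbol to RefSeq on GRCm38.p6, the assembly called mm10. Alternatives were other pseudocounts (0.1, 5), other filters (none, or a minimum of 5), 2 rescalings of the RVKM-Ascl2 library, and removal of a running median over 501 genes by span. A version of the last without immunoglobulin genes, and counts over genes with a known span alone, were added after the data were seen. The lists omit 1 gene that is not reported here. The steps were tried on simulated data with large planted changes and a small noise set by hand. That trial checks the steps only, and the noise of these libraries is unknown. Python 3.11.15, numpy 2.4.6, pandas 2.3.3 and matplotlib 3.10.9 were used.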

Additional observations from a re-analysis of the deposited data

How the results depend on the processing

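A pseudocount of 5 was the setting that changed the count of members past 2-fold, from 1 to 0, with Runx1 at −0.91. The count past 1.5-fold stayed at 1 in all 8 settings, and the median member log2 ratio lay between −0.07 and 0.10, with no fixed sign. Over all genes, those at least 2-fold higher in RVKM-Ascl2 numbered 370 with a pseudocount of 0.1 and 103 with 5, against 188 as reported. Those at least 2-fold lower numbered 220 with a pseudocount of 0.1 and 20 with 5, against 88. Removal of the span trend was possible for 11327 genes, of which 165 were higher and 65 lower before it. With the trend removed 118 were higher and 81 lower, and with immunoglobulin genes left out of the trend 232 were higher and 44 lower. Smaller pseudocounts let low genes pass by construction. The paralog ratios moved by less than 10% with a pseudocount of 1. No library could be left out and no paired analysis was possible because each group has 1 library. The unknown depth limits the low members most, Runx1 and Pou2f1.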

Other observations

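The genes next to each member on the chromosome, taken as the nearest kept gene on each side with a unique RefSeq match, gave 20 neighbours, of which 3 were past 1.5-fold and 2 of these past 2-fold, where 9.32% and 2.25% of all genes kept were past these limits. All 3 were lower in RVKM-Ascl2 and of low level. Gm16225, a predicted gene that ends 0.269 kb before Runx3, was 1.60 in RVKM-Ascl2 and 6.06 in RVKM-Empty (log2 ratio −1.44). Gm12161, a predicted gene 272 kb beyond Ebf1, was 0.579 in RVKM-Ascl2 and 2.58 in RVKM-Empty (−1.18). Setd4, 757 kb beyond Runx1, was 1.52 in RVKM-Ascl2 and 3.83 in RVKM-Empty (−0.94), while Rcan1 on the other side of Runx1 was 3.48 and 4.46 in the same libraries (−0.29). These values have no replicate check.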
